A study of Mus musculus with 6 samples.

Results

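The Naip family and Nlrc4 were followed in isolated islets of 3 db/db and 3 db/m mice. The members were listed by name as the mouse NAIP sensors Naip1, Naip2, Naip5, Naip6 and Naip7 and their partner Nlrc4. The family was selected on its raw counts in these mice, because of the Naip6 difference between the groups. Of the 6 names, 5 had a row among the 44713 gene rows of the count table, 4 had at least 1 count and 3 (Naip2, Naip5 and Naip6) passed the filter on low counts that kept 12760 genes. Naip7 had no row and was not analysed here. Both copies of the leptin receptor gene carry the db mutation in db/db mice, a model of type 2 diabetes with obesity, and the db/m mice are non-diabetic littermates. The labels give the genotypes as Lepr-/- and wild type and the strain as C57BL/6 for all 6 mice, while the study's methods name the line BKS.Cg-Dock7m+/+Leprdb/Nju. All mice were male, ate a normal diet and were 10 weeks old. Collagenase and a Histopaque gradient served to separate the islets from the rest of the pancreas, and 1 library per mouse was made from their RNA after ribosomal RNA had been removed.

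NAIP proteins are cytosolic receptors for bacterial proteins. NAIP5 and NAIP6 bind flagellin, and NAIP1 and NAIP2 bind the needle and the inner rod of type III secretion systems. A NAIP that has bound its ligand recruits NLRC4, and the resulting inflammasome activates caspase-1, which cleaves pro-interleukin-1β, pro-interleukin-18 and the pore-forming protein gasdermin D. In mice the pathway is best known in macrophages and intestinal epithelium. The Naip genes lie side by side, and the number and content of the genes in this cluster differ between inbred mouse strains.

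In mm10 (GRCm38) the cluster spans 308.8 kb of chromosome 13, from 100144063 to 100452864, and every Naip gene is on the reverse strand. Naip2 lies at chr13:100144063-100202122, Naip5 at chr13:100211735-100250930, Naip6 at chr13:100281121-100316616 and Naip1 at chr13:100407770-100452864. Nlrc4 lies elsewhere, at chr17:74426255-74459144. The RefSeq annotation of this build also lists Naip2 and Naip5 on 2 additional scaffolds each, from the strains 129S1/SvImJ and A/J, and lists neither Naip1 nor Naip6 there. The mice's own sequence of the cluster was not analysed here.

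The Naip genes are close copies, so how well a read can be given to one of them bears on every value below. The coding sequences of Naip5 and Naip6, each of 4212 bases, aligned without gaps and matched at 4084 positions (97.0%). All other pairs of the 4 protein-coding genes matched at 89.8 to 92.1% of the aligned bases. The longest unchanged run between Naip5 and Naip6 had 229 bases (coding bases 2338 to 2566), at chr13:100222161-100222389 in exon 10 of Naip5 and chr13:100299448-100299676 in exon 9 of Naip6. The 60 coding bases with the most differences were bases 41 to 100, at chr13:100246100-100246159 in exon 2 of Naip5 and chr13:100316452-100316511 in exon 1 of Naip6. They are shown 5′ to 3′ on the coding strand, with the 10 differing bases in capitals, because a read from this stretch separates the genes while one from the shared run cannot.
Naip5: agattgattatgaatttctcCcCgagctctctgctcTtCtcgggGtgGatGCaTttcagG
Naip6: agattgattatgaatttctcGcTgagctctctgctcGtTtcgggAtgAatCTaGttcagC

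Across the whole spliced transcript, 33.3% of the 50-base stretches of Naip6 also occurred unchanged within another Naip gene or pseudogene, against 34.5% for Naip5, 32.7% for Naip1 and 19.0% for Naip2. Naip6 shared most with Naip5 (17.0% of its stretches) and with the pseudogene Naip3 (16.5%). With 100-base stretches the shares were 11.2% for Naip6, 14.1% for Naip5, 13.9% for Naip1 and 4.52% for Naip2. The read length and the treatment of reads with several matches are not given in the sources used here, so how such reads were counted was not tested.

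**Figure D1:**
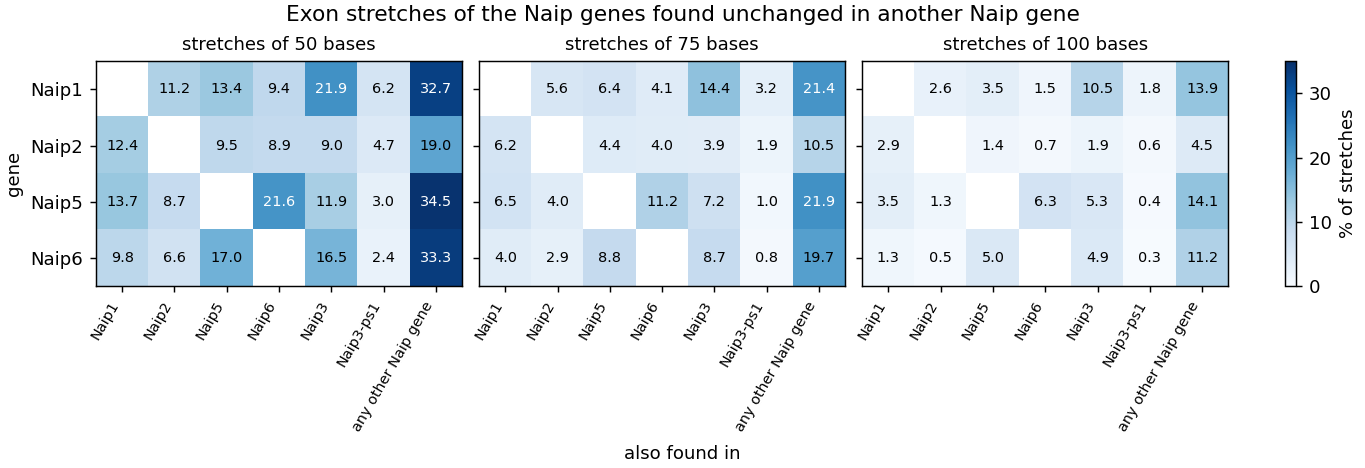
Share of the 50-base, 75-base and 100-base stretches of each spliced Naip transcript (rows, %) that occur unchanged, on either strand, within the span of another Naip gene or pseudogene (columns). Naip6 shares 33.3% of its 50-base stretches with any other Naip gene, 17.0% with Naip5 and 16.5% with Naip3, and the shares fall as the stretches lengthen.

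A pseudogene row of the table overlaps an exon of Naip6. Naip3-ps1 (chr13:100264609-100283091) has 222 of its 2138 exon bases inside the last exon of Naip6, exon 14 of 14 (chr13:100281121-100283913). Reads from this place belong to both annotations, so the rows are not independent.

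The sequence before the Naip starts is shown because RefSeq and GENCODE begin Naip5 and Naip6 at different places. The RefSeq promoters (250 bases before to 50 bases after each start) of Naip1, Naip2 and Naip5 share the 11-base run CCTTTAAGAGG, and that of Naip6 does not hold it. Searched on both strands, the run occurred in 30 of 32851 RefSeq promoters (0.0913%). In the genome it is also present at chr13:100317770-100317780, 1164 bases before the RefSeq start of Naip6 but 106 bases before the start in GENCODE, which begins Naip6 1058 bases further upstream. The run starts 110 bases before the RefSeq start of Naip1, 73 before that of Naip2 and 80 before the one used for Naip5, chr13:100247336. The RefSeq span of Naip5 reaches further upstream, to chr13:100250930, so the run lies inside that span. Before the GENCODE starts the run lies 105 bases for Naip1, 103 for Naip2 and 1093 for Naip5. GENCODE begins Naip5 1013 bases downstream of the RefSeq start used here. It occurs at 5 places in the cluster, and the fifth, at chr13:100403467-100403477, is near the start of no listed Naip gene. The 120 bases around each of the other sites (chr13:100452905-100453024 for Naip1, chr13:100202126-100202245 for Naip2, chr13:100247347-100247466 for Naip5 and chr13:100317711-100317830 for Naip6) read as follows on the gene's strand, with the shared run in capitals.
Naip1: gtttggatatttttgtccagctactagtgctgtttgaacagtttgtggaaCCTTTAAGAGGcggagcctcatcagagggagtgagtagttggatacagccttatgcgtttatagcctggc
Naip2: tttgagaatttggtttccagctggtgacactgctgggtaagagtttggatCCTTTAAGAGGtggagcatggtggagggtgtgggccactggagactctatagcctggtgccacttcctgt
Naip5: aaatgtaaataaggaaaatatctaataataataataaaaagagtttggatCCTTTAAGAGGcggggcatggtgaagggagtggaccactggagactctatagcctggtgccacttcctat
Naip6: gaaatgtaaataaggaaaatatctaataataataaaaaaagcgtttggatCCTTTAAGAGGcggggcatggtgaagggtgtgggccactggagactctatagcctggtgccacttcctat

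The 150 bases before the GENCODE start of Naip6 shared an unbroken run of 44 bases with the RefSeq promoter of Naip2, 37 bases with that of Naip5 and 14 bases with that of Naip1. Within the same 150 bases the longest run in common with the RefSeq promoter of Naip6 had 7 bases. These matches describe letters only.

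The libraries held 15641797 to 20614531 counts on genes. Levels are given as counts per 1000000 (CPM) of the effective library size, a library total adjusted by TMM factors so that a few very abundant genes do not set the scale. The effective sizes ran from 12460000 in db/db 1 to 27250000 in db/m 1. Lepr, the mutated gene, had 4 to 68 counts in db/db and 8 to 37 in db/m islets. The db mutation alters splicing of the long receptor form, so this total checks no label.

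Naip6, a flagellin receptor, had reads in every db/db mouse and none in any db/m mouse. The counts were 51, 68 and 54 in db/db 1, 2 and 3, and 0, 0 and 0 in db/m 1, 2 and 3. These correspond to 4.09, 4.07 and 3.63 CPM in the db/db mice, with a mean of 3.93 ± 0.259 CPM (SD, n = 3). The 3 db/db mice lay close together and the groups did not overlap. At the mean db/db level the db/m libraries would have held 107, 67.5 and 72.6 Naip6 counts. Taking 3 counts per library as the most that a count of 0 allows (0.110, 0.175 and 0.162 CPM in db/m 1, 2 and 3), the mean in the db/db mice exceeded that in the db/m mice at least 26.4-fold. The members were listed because of this difference, so no test of it is given. In bulk islets, fewer cells that express a gene and less of its RNA per cell cannot be told apart. A difference between the groups in their own sequence of the cluster, or in how shared reads were assigned, was not tested either.

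The same pattern was counted over the whole table as a description. Of all 44713 rows, 1 (0.00224%) had at least 30 counts in each db/db library and 0 in all db/m libraries, and it was Naip6. No row had the opposite pattern. With a minimum of 3 counts in each library with reads, 8 rows (0.0179%) were seen in db/db mice alone and 57 (0.1275%) in db/m mice alone. The 8 rows were Naip6, Naip3-ps1, 4930430J02Rik, Cck, Ccl21a, Csn3, LOC102631636 and Mir1933, so that 2 of the 8 were neighbours in the Naip cluster whose exons overlap. Of these, 3 had at least 10 counts in every db/db mouse, namely Naip6, 4930430J02Rik (21, 17 and 24 counts) and Cck, the gene of the hormone cholecystokinin (23, 158 and 29 counts). At this minimum of 10 counts, 4 rows (0.00895% of all rows, beside 0.00671% for the 3) had reads in db/m mice alone. They were Gm7370, Mir5710, Slc18a3 and Zcwpw2.

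Naip2, the receptor for the inner rod protein, was detected in all 6 mice. It had 11, 31 and 17 counts in db/db and 48, 21 and 20 counts in db/m islets. As CPM these were 0.883, 1.85 and 1.14 against 1.76, 1.22 and 1.08 CPM. The group means were 1.29 ± 0.502 and 1.36 ± 0.358 CPM (SD, n = 3 each), a log2 ratio of -0.07 that was -0.67 with library totals alone. The db/m values lay inside the db/db range.

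Naip5, the flagellin receptor closest in sequence to Naip6, was also read in all 6 mice but at fewer than 30 counts in each. It had 13, 2 and 15 counts in db/db and 26, 8 and 1 counts in db/m islets. The means were 0.724 ± 0.524 and 0.492 ± 0.451 CPM (SD, n = 3 each), and the groups overlapped. The log2 ratio of 0.56 took the other sign, -0.40, when libraries were scaled by their totals alone, a scaling that also moved the median of all tested genes from -0.001 to -0.59.

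Naip1, the receptor for the needle protein, had 0 counts in all 6 libraries. Over the 104491508 counts of the libraries together, 3 counts, again taken as the most that 0 allows, are 0.0287 CPM of that raw total. Nlrc4, the partner that all NAIP proteins need to form the inflammasome, had 1 count in db/m 2 and 0 in the other 5 libraries. At this depth no difference in Naip1 or Nlrc4 was detectable.

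The pseudogenes Naip3-ps1 and Naip3 were low. Naip3-ps1, which partly overlaps Naip6, had 3, 9 and 8 counts in db/db and 0 in each db/m mouse. Naip3 had 0, 0 and 1 counts in db/db and 1, 2 and 0 in db/m mice.

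**Figure D2:**
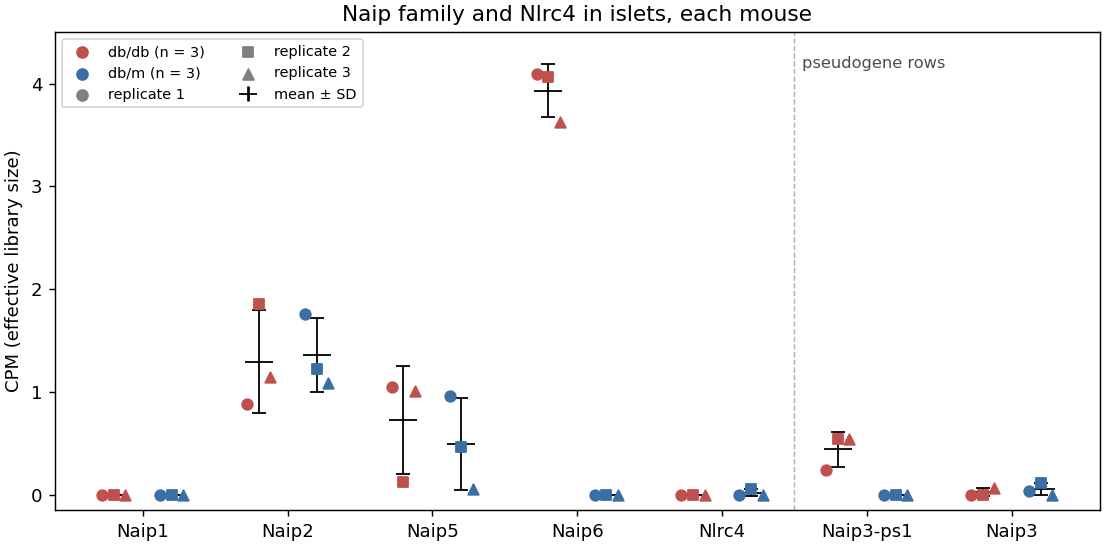
CPM of each member with a row in the table, and of the pseudogenes Naip3-ps1 and Naip3, in each mouse (red, db/db, and blue, db/m, with the marker shape giving the replicate). Horizontal bars and whiskers show the mean ± SD of 3 mice. Naip6 lies between 3.63 and 4.09 CPM in db/db mice and at 0 in db/m mice, while Naip2 and Naip5 overlap between the groups and Naip1 and Nlrc4 lie at or near 0.

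Within the db/db mice Naip6 was the most abundant member. Per kb of exon its mean level was 0.586 ± 0.0387 CPM per kb, against 0.267 ± 0.104 for Naip2 and 0.134 ± 0.0965 for Naip5 (SD, n = 3 each). Naip6 lay above Naip2 in each of the 3 mice without overlap (lowest Naip6 value 0.542, highest Naip2 value 0.382). Naip2 and Naip5 overlapped within the db/db group, with 0.182, 0.382 and 0.236 against 0.192, 0.0220 and 0.186 CPM per kb. In db/m mice the order was Naip2 at 0.279 ± 0.0739, Naip5 at 0.0906 ± 0.0831 and Naip6 at 0, and every Naip2 value lay above every Naip5 value.

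Among counts on the protein-coding Naip genes, Naip6 took a similar share in the 3 db/db mice. It held 51 of 75 counts in db/db 1 (68.0%, exact 95% binomial interval 56.2 to 78.3%), 68 of 101 in db/db 2 (67.3%, 57.3 to 76.3%) and 54 of 86 in db/db 3 (62.8%, 51.7 to 73.0%). The 3 intervals overlapped. In the db/m mice it held 0 of 74, 0 of 29 and 0 of 21 counts, with upper limits of the exact 95% interval at 4.86%, 11.9% and 16.1%. These intervals and limits cover counting error only. The other coding Naip genes together reached 1.93, 1.97 and 2.15 CPM in db/db and 2.72, 1.69 and 1.14 CPM in db/m mice, with the db/db values inside the db/m range.

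The genes around the cluster were read to see whether the 0 in db/m mice extended as far as them. Rows between Naip6 and Gtf2h2 had few or no counts in either group. Naip1 had 0, and Naip3 had 0, 0 and 1 in db/db and 1, 2 and 0 in db/m mice. Rpl31-ps13, a pseudogene inside the span of Naip1, had 5, 0 and 6 counts in db/db and 3, 2 and 1 in db/m mice. With counts this low, and with Naip3 sharing sequence with Naip6, how far the 0 reaches on that side short of Gtf2h2 cannot be told. Of the 43 annotated genes within 1 Mb that are not Naip genes, 32 had a row and 18 were tested. None of the 18 was called at an adjusted p under 0.05 by edgeR's quasi-likelihood test, where 0.619% of all tested genes were called (79 of 12760). At an unadjusted p under 0.05, 1 of the 18 was lower and 0 were higher in db/db islets, against 9.89% and 5.04% of all tested genes. The median log2 fold change of the 18 genes was 0.16, beside -0.001 over all tested genes.

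On the Naip2 side, Smn1, whose protein assembles spliceosomal particles, lies 6.4 kb away and had 80, 131 and 58 counts in db/db and 116, 83 and 115 in db/m mice. Serf1 (22 to 37 and 9 to 30 counts), Bdp1 (265 to 407 and 496 to 561) and Mccc2 (122 to 305 and 166 to 384) follow, with reads in every mouse. Bdp1 is a subunit of the RNA polymerase III factor TFIIIB, and Mccc2 is a subunit of a leucine-degrading carboxylase. On the Naip1 side, Gtf2h2, a subunit of the transcription and repair factor TFIIH, lies 7.4 kb away and had 35, 73 and 50 counts in db/db and 77, 54 and 75 in db/m mice. Ocln, the tight-junction protein occludin, had 239 to 300 and 272 to 378 counts. None of these 6 genes reached an unadjusted p under 0.05, and their log2 fold changes ran from -0.23 for Bdp1 to 0.92 for Serf1 (standard error 0.54, adjusted p = 0.465 from edgeR).

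Map1b, a microtubule-associated protein of neurons and endocrine cells, was the 1 neighbour past the unadjusted threshold. It lies 627.5 kb from the cluster and had 188, 540 and 425 counts in db/db and 2937, 915 and 726 in db/m mice. By edgeR the log2 fold change was -1.40, with a standard error of 0.42 and an adjusted p of 0.164, and DESeq2 called it at an adjusted p under 0.05. Of the remaining protein-coding neighbours named by the rule, Zfp366, Ptcd2, Mrps27, Marveld2, Rad17, Ak6, Taf9, Ccdc125 and Cdk7 had reads in every mouse and unadjusted p from 0.0647 for Taf9 (log2 fold change 0.55, standard error 0.26) to 0.986 for Rad17. Cartpt, Mrps36 and Cenph did not pass the filter. Cenph had 0 counts in all db/db mice and 4, 0 and 0 in db/m mice.

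**Figure D3:**
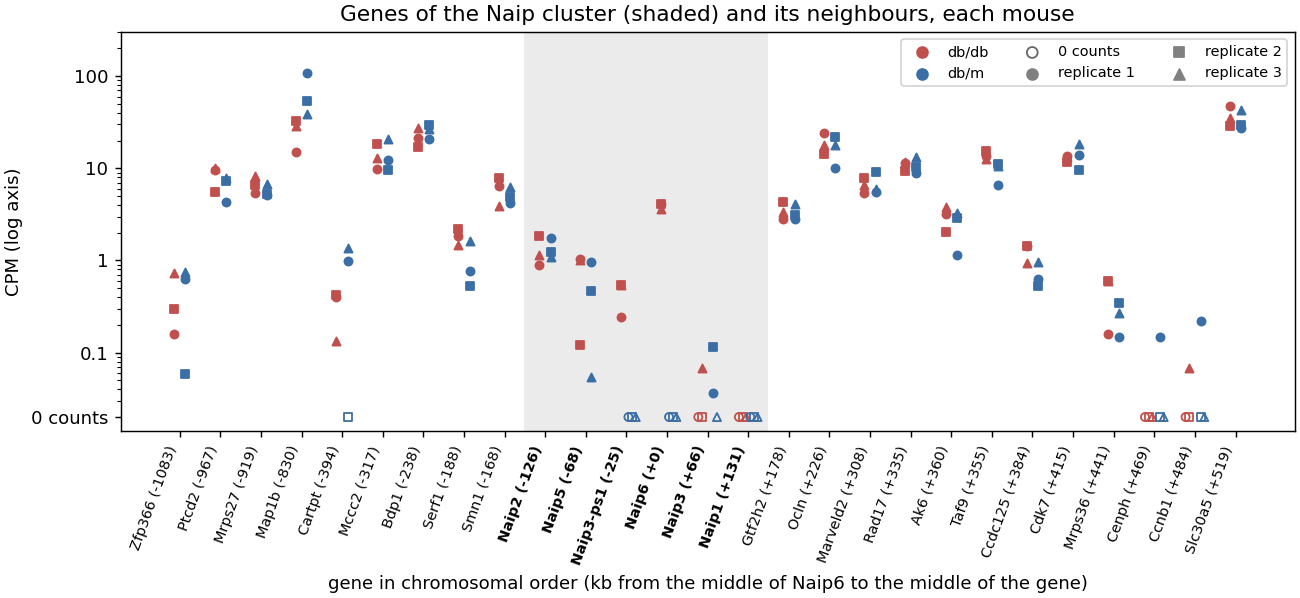
CPM (log axis, with 0 counts drawn as open markers at the bottom) of Naip rows, shaded and in bold, and of the protein-coding genes within 1 Mb, in chromosomal order. Numbers beside the names are the distance in kb between the middle of the gene and the middle of Naip6. Naip6 and Naip3-ps1 have values above 0 in all db/db mice and 0 counts in all db/m mice, and the nearest genes on both sides, Smn1 and Gtf2h2, have reads in all 6.

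The other genes of the inflammasome pathway were taken as 45 genes in 6 lists, of which all had a row and 26 were tested. None was called at an adjusted p under 0.05 by edgeR, beside the 0.619% of all tested genes. At an unadjusted p under 0.05, 1 of the 26 was lower and 0 were higher, again beside 9.89% and 5.04% of all genes. The log2 fold change was above 0 for 14 and below 0 for 12 of the 26, with a median of 0.10.

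The sensors other than NLRC4 were at the edge of detection. None of the 7 passed the filter. Nlrp3, the sensor of cell stress, had the most reads, with 5, 1 and 6 counts in db/db and 30, 5 and 2 in db/m mice. Aim2, the sensor of cytosolic DNA, had 0 counts in all 6 libraries, as did Nlrp12.

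Of the 9 adaptors and regulators 8 were tested, 4 with a log2 fold change above 0 and 4 below. Pycard, the adaptor ASC that links sensors to caspase-1, had 40, 11 and 20 counts in db/db and 42, 2 and 26 in db/m mice, and the groups overlapped (log2 fold change 0.73, standard error 0.85, adjusted p = 0.718 from edgeR). Irf8, a transcription factor known to drive Naip genes in macrophages, had 2, 19 and 70 counts in db/db and 161, 6 and 6 in db/m mice. Its spread within each group exceeded the difference between them (log2 fold change -0.15, standard error 1.20). Tlr5, the surface receptor for flagellin, had 13 counts in db/db and 19 in db/m mice in all and was not tested.

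The proteases, pores and cytokines that act after the sensors were low. Casp1 had 1, 5 and 14 counts in db/db and 13, 2 and 0 in db/m mice. Casp4, the caspase that recognises lipopolysaccharide, had 3, 9 and 11 against 21, 0 and 1 counts. Gsdmd, the gene of gasdermin D, had 1, 14 and 19 against 49, 5 and 8 counts (log2 fold change -0.21, standard error 0.92). Il1b had 1, 5 and 11 against 33, 1 and 4 counts, and Il18 had 2 counts in db/m 1 and 0 in the other 5 libraries. In each of these 5 rows the groups overlapped and db/m 1 held the most reads of the db/m mice. Of the 10 genes, 4 were tested, none with an unadjusted p under 0.05, and Ninj1, which ruptures the plasma membrane of dying cells, had an unadjusted p of 0.0542 (log2 fold change 0.60, standard error 0.27).

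Il1r1, the receptor through which interleukin-1 acts, was the 1 pathway gene past the unadjusted threshold. It had 128, 566 and 523 counts in db/db and 4708, 3217 and 1222 in db/m mice, and the groups did not overlap. The mean was 26.4 ± 14.01 CPM in db/db and 142 ± 66.2 CPM in db/m islets (SD, n = 3 each). edgeR gave a log2 fold change of -2.42 with a standard error of 0.53, an unadjusted p of 0.00130 and an adjusted p of 0.0819. DESeq2 called it, and so did edgeR without db/m 3. Of its 7 companions in the list of interleukin-1 and interleukin-18 receptors and antagonists, 4 were tested and none reached an unadjusted p under 0.05.

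Among the other NLR genes 5 of 6 were tested and among the other BIR-domain genes, relatives of the NAIP proteins that restrain apoptosis or ubiquitinate proteins, 4 of 5. None of these 9 reached an unadjusted p under 0.05. Ciita, the activator of MHC class II genes, ran from 5 to 65 counts in db/db and from 1 to 226 in db/m mice. Birc6 was the most read, with 2088 to 2480 counts in db/db and 3144 to 4281 in db/m mice (log2 fold change -0.12, standard error 0.24).

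**Figure D4:**
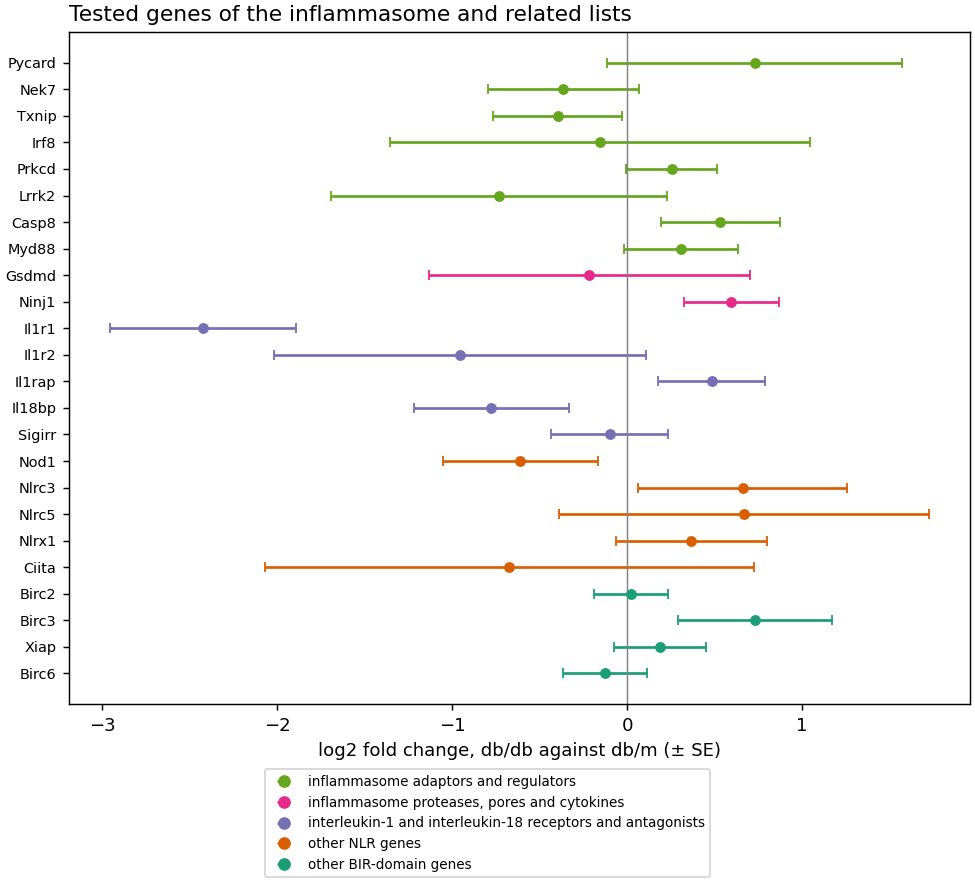
Log2 fold change between db/db and db/m islets with its standard error for 24 of the 26 tested genes of the inflammasome and related lists, 3 mice per group, coloured by list. Il1r1 lies at -2.42 and the other 23 lie between -1 and 1.

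Since NAIP genes are known from macrophages and intestinal epithelium, markers of these and of other cells were set beside Naip6. The 15 macrophage markers summed to 19.5 to 69.6 CPM in db/db and 8.28 to 53.0 CPM in db/m mice. They overlapped between the groups, and 9 of 15 had a higher mean in db/db islets. Lyz2, the lysozyme of macrophages and neutrophils, held 49.5, 9.15 and 39.3 CPM of the sum in db/db and 16.5, 4.43 and 0.704 CPM in db/m mice. It was the 1 of 9 tested macrophage markers at an unadjusted p under 0.05 (log2 fold change 2.16, standard error 0.91, adjusted p = 0.312 from edgeR). Without it the sums ran from 10.3 to 24.4 CPM in db/db and from 7.58 to 36.5 CPM in db/m mice. The 5 general leukocyte markers summed to 7.71 to 42.4 CPM in db/db and 2.98 to 35.6 CPM in db/m mice, with 5 of 5 higher means in db/db islets. The mouse db/m 1 had a macrophage sum of 53.0 and a leukocyte sum of 35.6 CPM with 0 Naip6 counts. The mice db/m 2 and db/m 3 had macrophage sums of 12.5 and 8.28 CPM and leukocyte sums of 3.96 and 2.98 CPM. These lay below every db/db mouse, so both overlaps came from db/m 1 alone. The mouse db/db 2 had sums of 19.5 and 10.7 CPM with 4.07 CPM of Naip6. The part of macrophages and other leukocytes in the Naip6 values was not tested. None of the 15 macrophage markers was at 0 in all libraries, and 3 were at 0 in some db/m library.

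The 9 intestinal epithelium markers summed to 6.98 to 11.0 CPM in db/db and 8.83 to 24.0 CPM in db/m mice, and 5 of them (Cdx1, Fabp2, Alpi, Apoa4 and Sis) were at 0 in all 6 libraries. The 8 neutrophil markers summed to 0.538 to 6.05 against 0.271 to 0.990 CPM, with Ly6g at 0 in all libraries. The 8 lymphocyte markers summed to 2.65 to 17.0 against 0.975 to 18.6 CPM, the 6 endothelial markers to 13.3 to 27.3 against 16.8 to 46.6 CPM and the 6 stromal markers to 36.6 to 67.1 against 4.72 to 48.7 CPM. All of these overlapped between the groups. The stromal sums did so through db/m 1 alone (48.7 CPM, against 4.72 in db/m 2 and 7.09 in db/m 3), and 6 of 6 stromal markers had a higher mean in db/db islets.

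**Figure D5:**
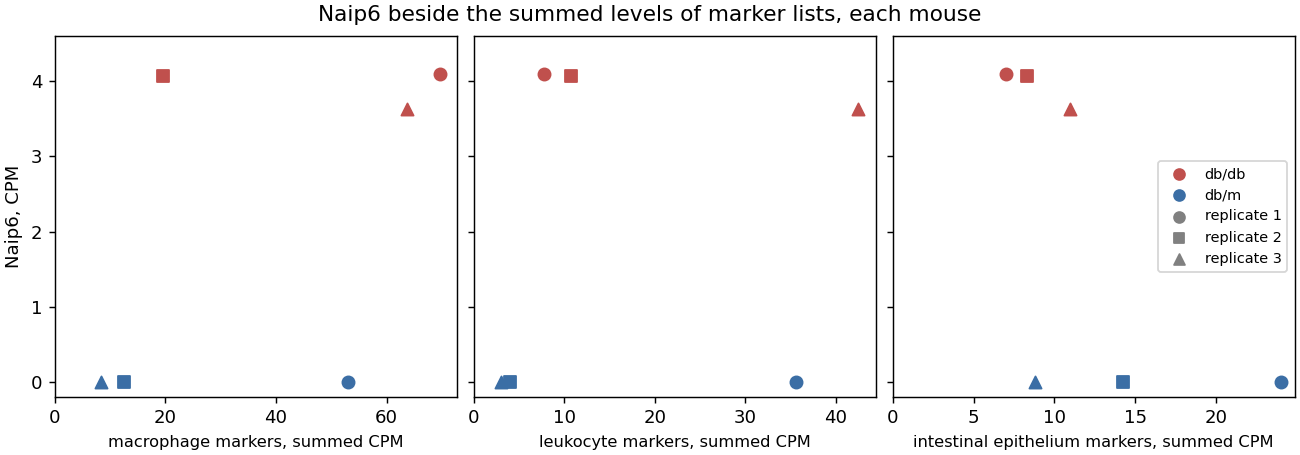
Naip6 (CPM) against the summed CPM of macrophage, leukocyte and intestinal epithelium markers in each mouse. Naip6 is at 3.63 to 4.09 CPM over macrophage sums of 19.5 to 69.6 CPM in db/db mice, and at 0 over sums of 8.28 to 53.0 CPM in db/m mice.

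Other lists did separate the groups. The 15 acinar markers, genes of the exocrine pancreas, took 59.0 to 63.0% of all counts in db/db and 45.5 to 57.9% in db/m libraries, so the preparations labelled islet cells held much acinar RNA. The study stained isolated cells for insulin to check that the islets sequenced were free of acinar cells, and reports most cells as positive. Stained cells and shares of RNA are unlike measures. The 10 beta cell markers took 0.150 to 0.641% in db/db and 0.772 to 4.39% in db/m libraries. The 6 duct markers separated the groups as CPM (79.1 to 131 in db/db and 61.1 to 77.5 in db/m mice) but overlapped as a share of all counts (0.00526 to 0.0130% and 0.00650 to 0.0116%). By edgeR, 1 of 15 acinar markers was called higher and 4 of 10 beta cell markers were called lower in db/db islets, where 0.133% of all tested genes were called higher and 0.486% lower. The 6 markers of other endocrine cells overlapped (371 to 765 against 260 to 1658 CPM). The part of the acinar, beta cell and duct differences in the Naip6, Il1r1 and Map1b values was not tested.

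The genes whose levels were most like that of Naip6 were found by Pearson's r of log2(CPM + 1) over the 6 libraries, as a description. They were Gm10334 (r = 0.997), Fxyd6 (0.991), Gm5771 (0.989), Lcn2 (0.989) and Mei4 (0.987). The 6 points fall into the groups and share libraries and scaling, so a gene that separates the groups evenly ranks high. Gm10334 and Gm5771 belong to the trypsinogen cluster, whose near-identical copies can share reads, and Gm10334 had 10736, 9088 and 8522 counts in db/db against 69, 59 and 83 in db/m mice. Lcn2, a lipocalin that binds bacterial siderophores, had 32, 49 and 40 against 16, 15 and 14 counts. Unlike Naip6, all 5 had reads in every db/m mouse. Nlrc4 had too few reads for such a comparison.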

How the data were processed

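Islet RNA of 3 db/db and 3 db/m mice was sequenced by the authors on a HiSeq instrument after removal of ribosomal RNA. The authors filtered adaptors, N bases and low-quality reads and mapped to mm10. Their methods name TopHat 2.0.14, while the submitters' processing notes name HISAT2 2.0.4. The counting program, annotation and use of strand are not given in the sources used here. The deposited table holds raw counts per gene symbol, and mice were grouped by their titles.

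Genes kept by filterByExpr were fitted with edgeR 4.0.16 (TMM factors, quasi-likelihood test, Benjamini-Hochberg adjustment over all 12760 genes) in R 4.3.3, with a common biological coefficient of variation of 0.355. Standard errors were derived from each log2 fold change and its F statistic. The code was tested on simulated data. DESeq2 1.42.0, other scalings and filters, and fits without each mouse were alternatives. Replicates of a group differed far beyond sampling noise (chi-square per degree of freedom 26.5 to 147), so none was counted as a copy. Sequences and gene models came from GRCm38 with RefSeq and GENCODE annotations, and 5 of the 6 members had a RefSeq promoter. Protein sequences were not used here.

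Members and gene lists were chosen with earlier results of these data known. A few listed items are not reported here. Otherwise the text names the Naip rows, pathway genes at an unadjusted p under 0.05 with 9 set genes, up to 10 nearest protein-coding neighbours per side, genes with 0 counts in all libraries of one group and at least 30 in each of the other, and the 5 genes most like Naip6. Other genes with values in the text, such as Cck, Nlrp12, Tlr5, Ninj1, Ciita, Birc6 and Lyz2, and the rows with at least 3 counts, were picked after their values were seen.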

Additional observations from a re-analysis of the deposited data

How the results depend on the processing

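The 3 mice per group, the few reads per Naip gene (at most 68) and the sequence shared among the copies limit these values, and counts in single digits give no usable fold. The lower bound of the Naip6 fold was 26.4. It was 18.4 with library totals alone, 26.6 without genes holding at least 1% of a library, 27.0 with upper-quartile factors, and 23.7 to 29.5 without 1 mouse. The log2 ratio of Naip2 ran from -0.41 to 0.19 and that of Naip5 from 0.04 to 1.48 without 1 mouse, and with library totals they were -0.67 and -0.40.

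Calls over all genes numbered 79 and changed to 21 with library totals, 52 with upper-quartile factors, 888 with every gene kept and 707 by DESeq2. They ranged from 10 to 333 without 1 mouse: 17 without db/db 1, 10 without db/db 2, 12 without db/db 3, 52 without db/m 1, 30 without db/m 2 and 333 without db/m 3. The pathway lists had 0 calls, or 1 (Il1r1) with every gene kept or by DESeq2, and 0 to 1 without 1 mouse (1 without db/m 3). The genes near the cluster had 0 calls, or 1 (Map1b) with every gene kept or by DESeq2, and 0 without any 1 mouse. The cause of these moves was not tested.

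The replicate numbers do not pair the mice: deviations of same-numbered mice correlated at -0.504 to -0.142. With the replicate block 16 genes were called, 0 of them in the pathway lists and 0 near the cluster, and the log2 ratios were -0.09 for Naip2 and 0.55 for Naip5.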
